A study of Arabidopsis thaliana with 4 samples.

Results

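The cells described here are the deeply sequenced root cells of 1 Arabidopsis thaliana reporter line, pWER:GFP, divided by whether any transcript of the reporter was counted in them. In that line the promoter of WER, a MYB transcription factor gene of the root epidermis, drives green fluorescent protein (GFP). Cell barcodes were taken with at least 20000 unique molecular identifiers (UMIs, 1 for each captured transcript molecule) and at most 10% of UMIs on mitochondrial and plastid genes. This left 2005 of the 9813 barcodes of the library and of the 41823 barcodes of the series. Of these 2005, 924 (46.1%) held 1 or more GFP UMIs and are called GFP-positive, and 1081 held none and are called GFP-negative. Both groups have the same genotype and come from the same preparation and library. They were chosen by the GFP count alone, so they are 2 groups of barcodes from 1 preparation, and not 2 conditions or 2 cell types. The call depends on depth as well: when 20000 UMIs were drawn from each barcode, 644 held GFP.

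The study sequenced 1 library from each of 4 reporter lines, pWER:GFP, pCORTEX:GFP, the enhancer trap PET111 and pSCR:GFP. Root tips were cut 4 to 5 days after germination from seedlings grown in continuous light, and the walls were digested to release protoplasts. Libraries were 10x Genomics 3′ v3.1. The labels give no sort for GFP, and they describe the material as various cell types of the root.

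In the root epidermis, cells that overlie 1 cortical cell become non-hair cells, and cells over a cleft between cortical cells become hair cells. WER acts with bHLH partners and the WD40 protein TTG1 to switch on GL2, which holds back the hair programme, and also CPC, a small MYB protein that moves to neighbouring cells and opposes WER there. The WER promoter is known to be active in young epidermis and in the lateral root cap, which arise from shared initials at the root tip.

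Since the groups were selected on GFP, every ratio between them within this library is a description. With 1 library there is no replicate and no test. Levels are summed UMIs of a gene for every 1000000 UMIs of the group (CPM), which mix the number of barcodes that carry a gene with the amount in each. Intervals on ratios are exact 95% intervals of the counting error only. A gene was counted as higher or lower when its CPM ratio, GFP-positive over GFP-negative, was at least 2-fold in either direction.

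The GFP-positive barcodes were the deeper ones. Their median depth was 84625 UMIs and 8454 genes, against 43841 UMIs and 6119 genes in the GFP-negative barcodes, and the groups summed to 100426775 and 69143631 UMIs. The organelle share was low in both, with a median of 0.426% in GFP-positive and 0.563% in GFP-negative barcodes. Of 144 barcodes at most 10% above the depth limit 55 held GFP (38.2%), and of 167 barcodes at most 10% below it, which were left out, 58 held GFP (34.7%). No doublet caller was run, and 1 deep barcode sequence was shared with each of the other 3 libraries.

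Reporter counts were small in most barcodes. The 924 GFP-positive barcodes held 7363 GFP UMIs, a level of 73.3 CPM. The median barcode had 4 GFP UMIs, the quartiles were 2 and 11, and the highest had 59. In 184 barcodes (19.9%) the call rested on 1 UMI, whereas the 264 barcodes with 10 or more held 69.1% of all GFP UMIs. The 10 highest barcodes together held 6.85%, so no handful of barcodes set the level.

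The label was checked against WER itself. WER stood at 257 CPM in GFP-positive and 13.3 CPM in GFP-negative barcodes, a log2 ratio of 4.28 (95% counting interval 4.18 to 4.37). It had a UMI in 96.2% of GFP-positive and 25.6% of GFP-negative barcodes. After each barcode was thinned to 20000 UMIs the shares were 87.7% and 15.4%, in the same order. Over the 924 GFP-positive barcodes the GFP and WER levels per barcode moved together, with a Pearson coefficient of 0.857. This is a description over cells of 1 library, and both levels share the barcode's total as divisor.

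**Figure D1:**
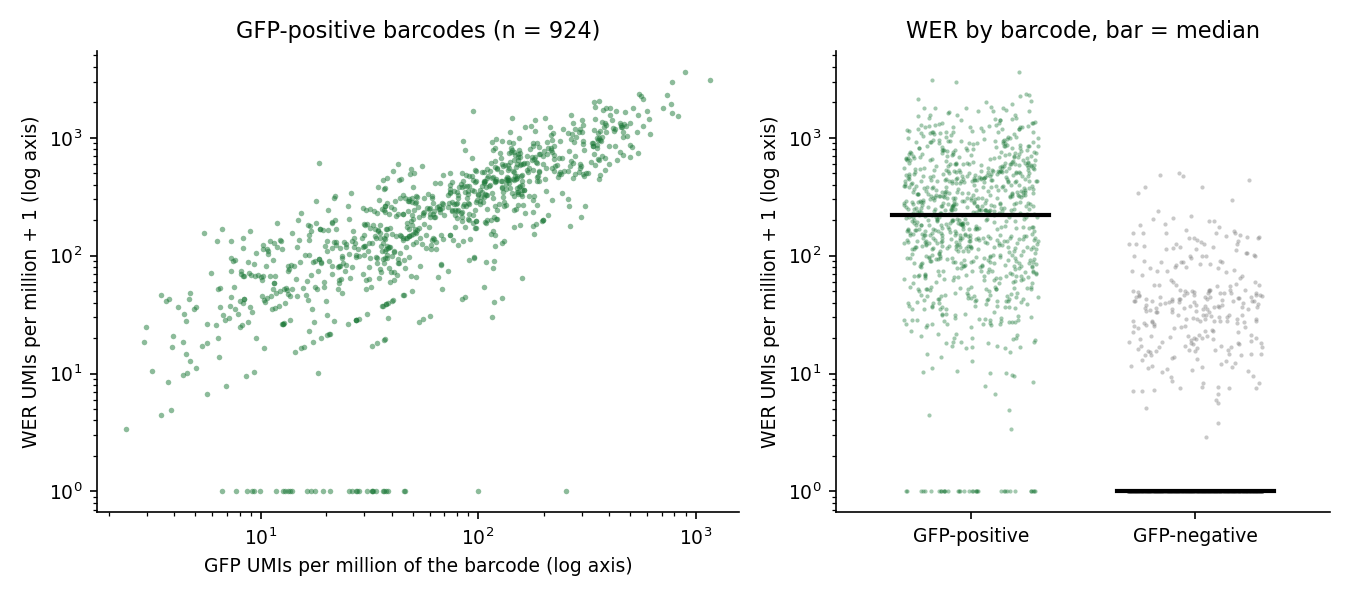
Left, each point is 1 of the 924 GFP-positive barcodes, with GFP on the horizontal and WER on the vertical axis, both in CPM of the barcode on log axes, WER with 1 added; right, WER per barcode in GFP-positive and GFP-negative barcodes with the median as a bar. WER climbs with GFP, the median GFP-positive barcode has a WER level of 220 CPM, and most GFP-negative barcodes lie on the floor that marks no WER UMI.

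Crossing both genes gave 4 classes. GFP and WER were seen together in 889 barcodes, GFP alone in 35, WER alone in 277 and neither in 804. The 277 barcodes with WER alone had a WER level of 41.3 CPM, against 263 CPM where both were seen. They were intermediate for other genes of the GFP-positive side: XTH5, an enzyme that rejoins xyloglucan chains in the wall, stood at 193 CPM with both, 24.4 CPM with WER alone and 5.95 CPM with neither. The 35 barcodes with GFP alone went the other way. Their summed endodermis list was at 3151 CPM, against 27.4 CPM in barcodes with both and 2065 CPM in barcodes with neither, and their XTH5 level was 4.53 CPM. Few barcodes carried that sum, since CASP1, the largest part of it at 1158 CPM, was seen in 22.9% of them, and 31 of the 35 held a single GFP UMI.

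GFP and WER were also counted in cells in which the WER promoter is not known to be active. Expression, doublets and free RNA cannot be told apart there. Among 129 deep barcodes with at least 5 thinned UMIs on root hair effector genes, 4 held GFP (3.101%, exact 95% interval 0.851% to 7.75%, for counting error over barcodes of 1 library) at a median depth of 58329 UMIs, and 12.4% held WER. GFP was at 1.77 CPM there. The other differentiated states had 6.38% of 94 phloem barcodes, 10.0% of 30 xylem barcodes, 13.7% of 211 endodermis barcodes and 20.15% of 134 stele barcodes with GFP. Their median depths ran between 32990 and 52140 UMIs, and their WER shares were 12.8%, 13.3%, 19.4% and 25.4% in the same order. The GFP share was 52.3% of 325 barcodes in a root cap state and 83.0% of 182 barcodes in a mitotic state. Their median depths differed, at 25889 UMIs in the root cap state and 79506.5 UMIs in the mitotic state. After thinning the GFP shares were 49.8% and 67.6% in that order. The levels had the opposite order, with GFP at 115.7 CPM in the root cap state and 91.9 CPM in the mitotic state. WER was at 380 CPM in the root cap state and 324 CPM in the mitotic state. A state here means at least 5 UMIs on a gene list after thinning, and a barcode may be in more than 1. The stele list includes AHK4, at 22.2 CPM of the list's 27.1 CPM in barcodes with both GFP and WER. Barcodes in the stele state may therefore not all be stele cells, and the part of AHK4 in their GFP share was not tested.

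Of 17985 genes with at least 100 UMIs over both groups, 2998 (16.7%) were at least 2-fold higher and 3712 (20.6%) at least 2-fold lower in GFP-positive barcodes, and the median log2 ratio was 0.05. These shares are the background for every count that follows. Among genes with at least 500 UMIs, the highest ratios were those of RTFL4 and WER, then XTH5 and TRM10. RTFL4, of the ROTUNDIFOLIA-like family of small polypeptides, had 5.18 CPM in GFP-positive and 0.246 CPM in GFP-negative barcodes (log2 4.40), but its log2 ratio was 1.67 among barcodes of at most 60000 UMIs. XTH5 had 189 CPM in GFP-positive and 11.9 CPM in GFP-negative barcodes (log2 3.99). TRM10, which RefSeq describes as a GAR2-like protein, had 15.3 CPM in GFP-positive and 0.998 CPM in GFP-negative barcodes (log2 3.94). Few of the other 8 in the highest 12 have a described role: a terpenoid cyclase family gene (AT3G14540), a defensin-like gene (AT3G24510), a hydroxyproline-rich glycoprotein gene (AT3G20590), a RING finger gene (AT5G07040), a peroxidase gene (AT2G43480), a DUF241 gene (AT2G17080) and 2 uncharacterized genes. Their log2 ratios ran between 3.43 and 3.74.

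Wall protein genes and genes with no described role were among the 12 lowest ratios of genes with at least 500 UMIs. AT4G26010, a peroxidase gene, had 1.97 CPM in GFP-positive and 150 CPM in GFP-negative barcodes. AT5G06630 and EXT6, both encoding proline-rich extensin-like wall proteins, had 0.647 and 0.757 CPM in GFP-positive barcodes and 50.2 and 47.0 CPM in GFP-negative barcodes. The lowest of these was the uncharacterized AT1G54575, with 0.299 CPM in GFP-positive and 43.3 CPM in GFP-negative barcodes (log2 -7.18). The remainder of the lowest 12 included UBC29, a ubiquitin-conjugating enzyme, ARFB1A, a small GTPase, and TOPP6, a protein phosphatase. All 12 had log2 ratios of -5.96 or lower, and each was seen in at most 22.8% of GFP-negative barcodes, so these levels came from a minority of cells. Without barcodes in differentiated states, described further on, UBC29, AT5G06630, AT5G04080 and AT1G28815 had ratios above 0.

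Measured by the difference in level instead, the gene furthest above in GFP-positive barcodes was AT2G43610, a chitinase family gene, at 7079 CPM against 1852 CPM in GFP-negative barcodes. The next 9 were 8 ribosomal protein genes and a translation elongation factor gene, AT5G60390, at 4813 CPM in GFP-positive and 2647 CPM in GFP-negative barcodes. The 10 genes furthest below included dehydrins and arabinogalactan proteins, which are cell surface proteoglycans. ERD14, a dehydrin, had 1052 CPM in GFP-positive and 5361 CPM in GFP-negative barcodes, and COR47, another, had 428 CPM in GFP-positive and 4494 CPM in GFP-negative barcodes. GASA1, a small secreted gibberellin-responsive peptide, had 271 CPM in GFP-positive and 4175 CPM in GFP-negative barcodes. AGP12 followed with 344 CPM in GFP-positive and 3394 CPM in GFP-negative barcodes, and AGP14, AGP24 and AGP2 were also among the 10 furthest below.

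**Figure D2:**
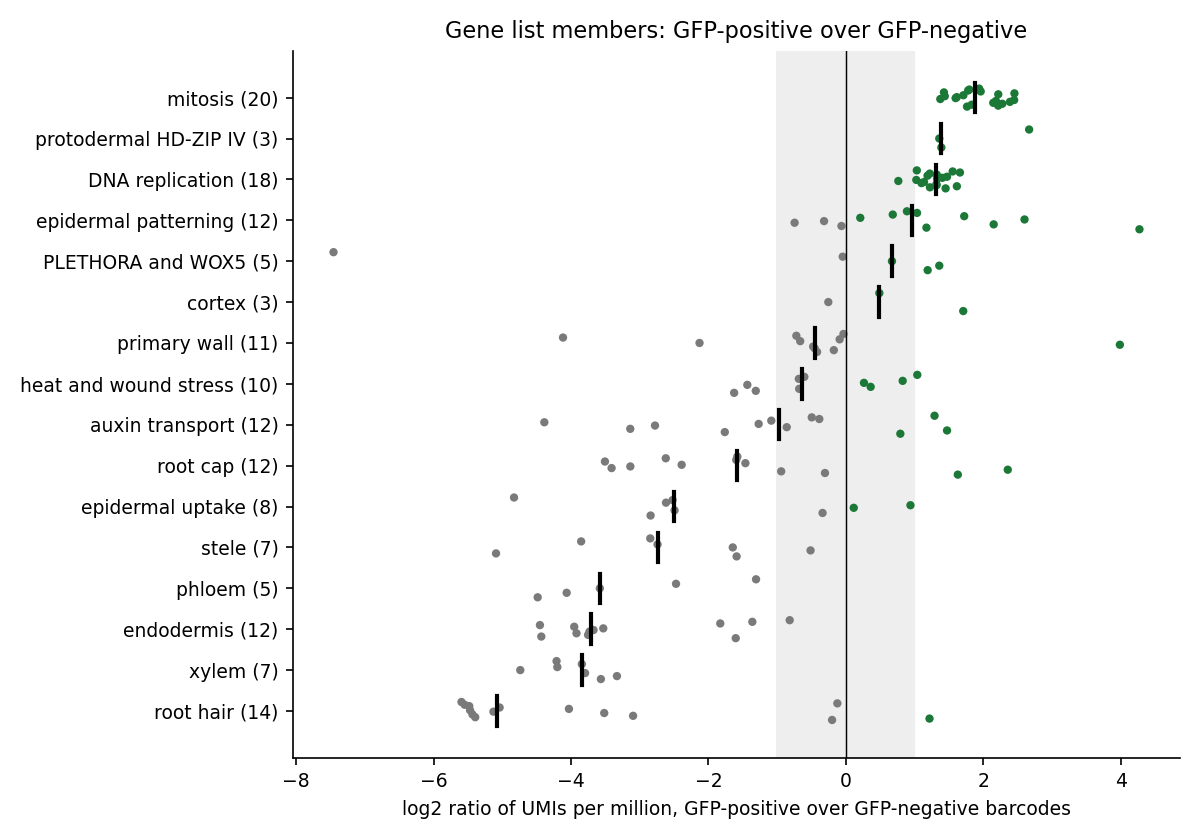
Each point is a gene of 1 of 16 lists with at least 100 UMIs, placed by its log2 ratio of CPM, GFP-positive over GFP-negative; green marks ratios above 0, bars mark list medians, the shaded band is under 2-fold, and numbers in brackets count the genes shown. All 20 mitosis genes lie right of the band, and the root hair, xylem, endodermis and phloem lists have medians of -5.08, -3.84, -3.70 and -3.58.

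Epidermal fate regulators were higher in GFP-positive barcodes in 6 of 12 cases and lower in none, with a list median of 0.96. That median was 0.50 when barcodes were thinned to 20000 UMIs and split again. After WER, the largest ratios were for EGL3, a bHLH partner of WER, with 3.43 CPM in GFP-positive and 0.564 CPM in GFP-negative barcodes (log2 2.60). TRY, a small inhibitory MYB, had 3.22 CPM in GFP-positive and 0.723 CPM in GFP-negative barcodes (log2 2.15). GL2 had 5.69 CPM in GFP-positive and 1.72 CPM in GFP-negative barcodes (log2 1.72). MYB23, a close relative of WER with a like role, had 48.5 CPM in GFP-positive and 21.5 CPM in GFP-negative barcodes (log2 1.17), and TTG2, a WRKY factor downstream of the complex, had a log2 ratio of 1.04. The members past 2-fold thus included both the non-hair regulators and the inhibitor TRY.

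CPC did not share that course. It was at 163 CPM in GFP-positive and 171 CPM in GFP-negative barcodes, a log2 ratio of -0.06 (counting interval -0.10 to -0.03), although WER differed between the same groups by 19.4-fold. GL3, the other bHLH partner, had 3.35 CPM in GFP-positive and 4.17 CPM in GFP-negative barcodes (log2 -0.32). TTG1 had 17.1 CPM in GFP-positive and 14.8 CPM in GFP-negative barcodes (log2 0.21). MYC1, a further bHLH partner, and the receptor kinase gene SCM had log2 ratios of 0.89 and 0.68.

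HD-ZIP IV genes, homeodomain factors of outer cell layers, were represented by 3 genes that passed the minimum of 100 UMIs, of 6 listed, and all 3 were higher. ANL2 had 12.05 CPM in GFP-positive and 1.89 CPM in GFP-negative barcodes (log2 2.67). HDG11 and HDG12 had log2 ratios of 1.39 and 1.36 at 0.797 and 1.37 CPM in GFP-positive barcodes. ATML1, PDF2 and HDG2, the first 2 known for shoot epidermis, had at most 30 UMIs in the GFP-positive group.

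The root hair list split by stage. RHD6, the bHLH factor that starts the hair programme, was at 26.2 CPM in GFP-positive and 30.1 CPM in GFP-negative barcodes (log2 -0.20). Its relative RSL1 was higher, with 3.097 CPM in GFP-positive and 1.33 CPM in GFP-negative barcodes (log2 1.22). The later bHLH factors were lower: RSL4 had 3.17 CPM in GFP-positive and 27.1 CPM in GFP-negative barcodes, RSL2 had 0.169 CPM in GFP-positive and 7.12 CPM in GFP-negative barcodes, and LRL3 had 1.15 CPM in GFP-positive and 49.5 CPM in GFP-negative barcodes. In all, 11 of 14 members were lower and 1 higher, with a median of -5.08. Among the wall and growth effectors, EXPA7, an expansin, had 1.62 CPM in GFP-positive and 56.8 CPM in GFP-negative barcodes (log2 -5.13), and XTH14, the lowest of the list, had 4.97 CPM in GFP-positive and 240 CPM in GFP-negative barcodes (log2 -5.59). LRX2, a wall protein with leucine-rich repeats, differed by less than 2-fold (log2 -0.12), whereas its relative LRX1 had a log2 ratio of -5.55.

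The root cap list also had members on both sides. FEZ and SMB, NAC factors that set division and maturation in the root cap, were higher: FEZ had 2.67 CPM in GFP-positive and 0.521 CPM in GFP-negative barcodes (log2 2.36), and SMB had 5.91 CPM in GFP-positive and 1.91 CPM in GFP-negative barcodes (log2 1.63). BRN1 and BRN2, NAC factors of late root cap, had log2 ratios of -0.30 and -0.94. The 8 lower genes of the 12 tested included enzymes of cell separation and cell death, with CEL5, a cellulase, BFN1, a nuclease, and MC9, a metacaspase, at log2 ratios of -3.14, -2.39 and -1.59. MC9 had 7.79 CPM in GFP-positive and 23.5 CPM in GFP-negative barcodes. These ratios are over whole groups, and levels in GFP-positive barcodes with SMB and FEZ are given further on. Barcodes in a root cap state were 18.4% of GFP-positive and 14.3% of GFP-negative barcodes.

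Division genes were on the GFP-positive side. All 20 mitosis genes were higher in GFP-positive barcodes, with a median log2 ratio of 1.89, and the list summed to 258 CPM in GFP-positive and 69.7 CPM in GFP-negative barcodes. KN (SYP111), the syntaxin of the forming cell plate, had 33.1 CPM in GFP-positive and 7.101 CPM in GFP-negative barcodes, and HIK, a kinesin of cytokinesis, had 13.9 CPM in GFP-positive and 2.53 CPM in GFP-negative barcodes. The 8 B-type cyclins had log2 ratios between 1.76 and 2.45. Without barcodes that held 2 or more UMIs on this same list, several members had ratios below 0, among them CYCB1;1 at -1.43. Each barcode left held fewer than 2 UMIs on the whole list. The ratios of these members thus rest on few UMIs, and their signs decide nothing. The list median in that setting, over genes with at least 100 UMIs, was 1.295. It rests on the same barcodes and decides nothing either. Of 18 DNA replication genes 17 were higher, with a median of 1.32. MCM5, a subunit of the replicative helicase, was the exception at 5.36 CPM in GFP-positive and 3.15 CPM in GFP-negative barcodes. The 5 histone H3.1 genes are near-identical copies and reads may be split among them; the most abundant, AT5G65360, had 558 CPM in GFP-positive and 245 CPM in GFP-negative barcodes.

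Barcodes in a mitotic state made up 16.3% of GFP-positive and 2.87% of GFP-negative barcodes after thinning, and those in a replication state 72.3% and 31.6%. Stem cell factors were less uniform. PLT1 and PLT2, AP2-type factors that maintain the meristem, were higher, with 4.76 and 2.90 CPM in GFP-positive and 2.08 and 1.13 CPM in GFP-negative barcodes. PLT3 and BBM had log2 ratios of 0.67 and -0.04. WOX5, the homeobox gene of the quiescent centre, had 1 UMI in GFP-positive and 121 UMIs in GFP-negative barcodes, a log2 ratio of -7.46 with a counting interval of -12.77 to -4.95.

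Ribosomal protein genes are 324 by RefSeq description. The list summed to 229077 CPM in GFP-positive and 97307 CPM in GFP-negative barcodes. Of 301 genes tested, 230 were higher and 6 lower, with a median log2 ratio of 1.24. Many of these genes have near-identical copies, so the split of reads among them is uncertain while the sum is less so. Within each group the barcodes varied widely: the median barcode had 194031 CPM in GFP-positive and 34028 CPM in GFP-negative barcodes, and the 95th percentile of GFP-negative barcodes, 271781 CPM, lay above the GFP-positive median.

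Auxin transport genes went both ways. PIN2, the efflux carrier of epidermis and cortex, had 73.0 CPM in GFP-positive and 26.3 CPM in GFP-negative barcodes (log2 1.47). PID, a kinase that acts on PIN carriers, had 20.3 CPM in GFP-positive and 8.30 CPM in GFP-negative barcodes (log2 1.29). AUX1, the influx carrier of the outer layers, had 67.0 CPM in GFP-positive and 38.6 CPM in GFP-negative barcodes, under 2-fold at a log2 ratio of 0.79. In contrast 6 of the 12 were lower. LAX3, another influx carrier, had 5.65 CPM in GFP-positive and 118 CPM in GFP-negative barcodes (log2 -4.39), PIN3 had 3.57 CPM in GFP-positive and 31.4 CPM in GFP-negative barcodes (log2 -3.14), and PIN7 had a log2 ratio of -2.78.

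Inner tissues were on the GFP-negative side. All 7 xylem genes tested, all 5 phloem genes, 11 of 12 endodermis genes and 6 of 7 stele genes were lower in GFP-positive barcodes, and none of these was higher. CASP1, a scaffold of the Casparian strip, had 28.8 CPM in GFP-positive and 623 CPM in GFP-negative barcodes. JKD, a zinc finger factor of ground tissue, was the endodermis gene that did not pass 2-fold, with 4.36 CPM in GFP-positive and 7.68 CPM in GFP-negative barcodes. XCP1, a protease of dying xylem vessels, had 5.04 CPM in GFP-positive and 92.5 CPM in GFP-negative barcodes, although it was seen in 6.60% of GFP-positive and 5.74% of GFP-negative barcodes. After thinning to 20000 UMIs the shares for XCP1 were 2.16% of GFP-positive and 3.42% of GFP-negative barcodes. Once barcodes in differentiated states, some of them chosen on xylem genes, were taken out, XCP1 was the only xylem gene left with 100 UMIs, at a log2 ratio of 0.22. SUC2, the phloem sucrose carrier, had 1.67 CPM in GFP-positive and 28.0 CPM in GFP-negative barcodes. PHO1, a phosphate exporter of the stele, had 0.149 CPM in GFP-positive and 5.09 CPM in GFP-negative barcodes. Barcodes in at least 1 state of hair effectors, endodermis, xylem, phloem or stele were 64 of the GFP-positive group (6.93%) and 480 of the GFP-negative group (44.4%), which leaves 601 GFP-negative barcodes (55.6%) in none of them.

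Other lists had no common side. Primary wall genes were mostly near level: CESA1, CESA3 and CESA6, subunits of the primary wall cellulose synthase, had log2 ratios of -0.42, -0.17 and -0.45, while XTH5 was far higher and XTH17 and XTH20, of the same enzyme family, were lower at -2.13 and -4.12. Cortex genes had 1 of 3 higher, AT1G09750, an aspartyl protease gene, with 4.59 CPM in GFP-positive and 1.40 CPM in GFP-negative barcodes. Among heat and wound genes 3 of 10 were lower and 1 higher: the chaperone HSP101 had 8.88 CPM in GFP-positive and 27.4 CPM in GFP-negative barcodes, and the calmodulin-like TCH3 had 321 CPM in GFP-positive and 156 CPM in GFP-negative barcodes. ZAT12, a zinc finger gene of wound and stress responses, was high in both groups, with 1371 CPM in GFP-positive and 1141 CPM in GFP-negative barcodes. Epidermal uptake genes, by contrast, had 5 of 8 lower and none higher, among them the nitrate carrier NRT1.1 with 3.68 CPM in GFP-positive and 26.4 CPM in GFP-negative barcodes.

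The reporter count was graded, and so were the genes. Barcodes were ordered by their own GFP level in CPM, in bins of 0, under 25, 25 to 50, 50 to 100, and 100 or more, which held 1081, 233, 183, 158 and 350 barcodes. WER stood at 13.3, 63.8, 151, 272 and 636 CPM in these bins. TRM10 climbed with it, at 0.998, 4.91, 9.14, 17.8 and 34.8 CPM. So did HIK, at 2.53, 6.17, 14.05, 17.4 and 23.6 CPM. GASA1 was highest without GFP and lowest at the top, at 4175, 368, 485, 131 and 43.5 CPM, and so was LAX3, at 118, 9.45, 9.51, 0.299 and 0.201 CPM. The lowest bin above 0 had the deepest barcodes, with a median of 144823 UMIs, against 41917 UMIs in the highest, so a low rate and a deep barcode went together.

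Other genes did not follow that order. Summed ribosomal protein genes were at 97307, 211808, 212413, 264684 and 245499 CPM, a step between no GFP and the lowest GFP bin with smaller differences after it. CPC stayed between 131 and 180 CPM throughout. RHD6 was highest in the lowest GFP bin, at 30.1, 47.4, 16.9, 14.9 and 7.04 CPM, and MYC1 had the same shape, at 4.32, 13.0, 5.38, 4.54 and 4.38 CPM. SMB was lowest there and highest at the top, at 1.91, 0.554, 2.77, 4.78 and 17.7 CPM. In bins of 0, 1, 2 to 4, 5 to 9, and 10 or more GFP UMIs, SMB was at 1.91, 1.88, 4.84, 7.44 and 7.88 CPM, without that dip. The bins thus differed in which epidermal or root cap regulators they held. The part of depth in these differences was not tested.

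**Figure D3:**
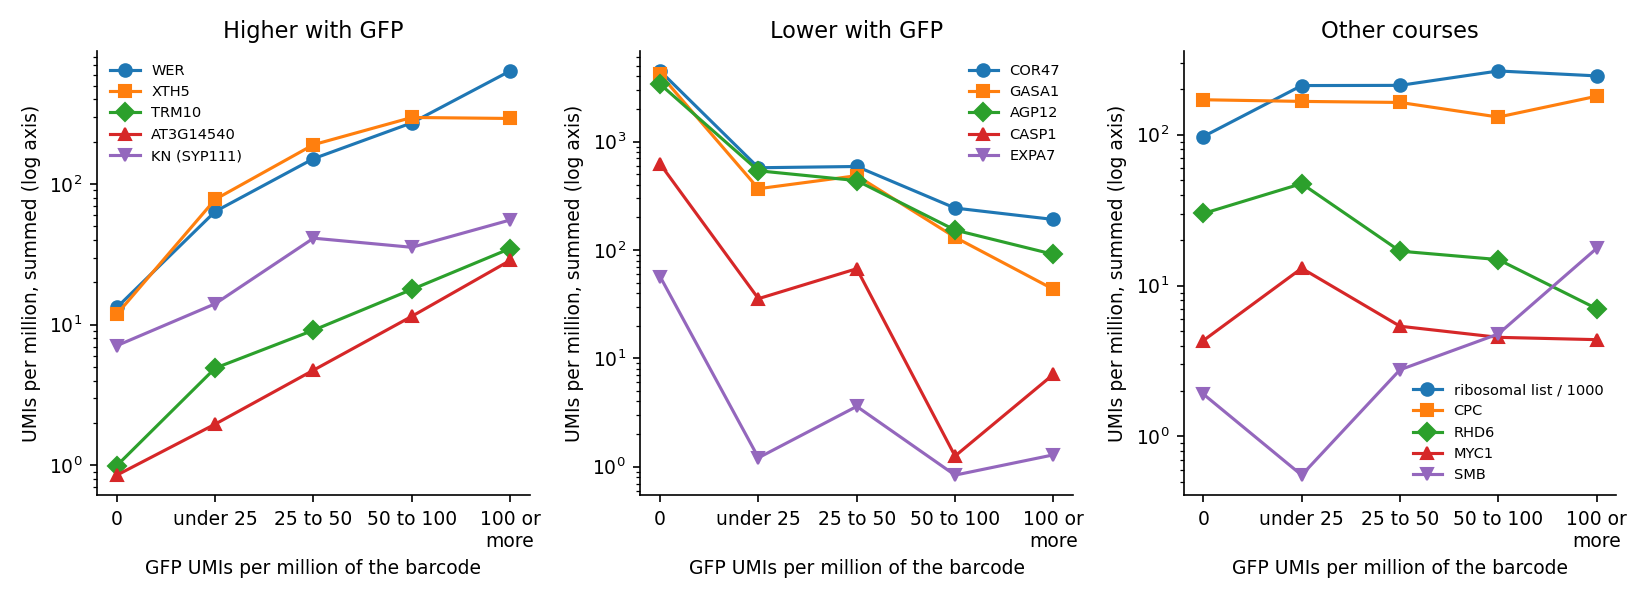
Summed CPM of 14 genes and of the ribosomal protein list (scaled down to share the axis) on log axes, over 5 bins of the barcode's GFP level in CPM, with the GFP-negative barcodes as bin 0. WER, XTH5 and TRM10 climb over the bins, GASA1 and COR47 are highest in bin 0 and lowest in the top bin, CPC stays flat, and RHD6 and MYC1 are highest in the bin under 25.

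Within the GFP-positive group, barcodes were set apart by fate genes. With 2 or more UMIs of GL2 and none of RHD6 there were 119 barcodes, with 2 or more of RHD6 and none of GL2 there were 176, and 11 had 2 or more of both. By another pair of genes, 142 had 2 or more UMIs of SMB and FEZ together, and 440 had neither GL2 nor RHD6. These sets rest on few UMIs, and their depths differed: medians were 117715 UMIs for the GL2 set, 198556 for the RHD6 set and 31134 for the SMB and FEZ set.

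All 3 sets were drawn from barcodes with GFP, so its presence is given by the choice, and the lowest level 1 UMI can give depends on depth. GFP was at 91.6 CPM in the GL2 set, 32.5 CPM in the RHD6 set and 221 CPM in the SMB and FEZ set. WER followed, at 360, 119 and 769 CPM in that order. MYB23 differed in its order, with 118 CPM in the GL2 set, 24.5 CPM in the RHD6 set and 5.84 CPM in the SMB and FEZ set. CPC was at 304 CPM in the GL2 set, 92.1 CPM in the RHD6 set and 106 CPM in the SMB and FEZ set, so within GFP-positive cells its level was not flat. The root cap set thus had the highest WER with the lowest MYB23.

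The GL2 and RHD6 sets differed in the regulators known to mark the fates. TTG2 stood at 20.0 CPM in the GL2 set and 1.21 CPM in the RHD6 set, and TRY at 8.62 CPM in the GL2 set and 1.21 CPM in the RHD6 set. MYC1 stood at 0.204 CPM in the GL2 set and 18.3 CPM in the RHD6 set, EGL3 at 1.02 CPM in the GL2 set and 6.35 CPM in the RHD6 set, and RSL1 at 0.136 CPM in the GL2 set and 7.75 CPM in the RHD6 set. Division was seen in both, with 260 CPM on the mitosis list in the GL2 set and 165 CPM in the RHD6 set. Hair effectors were low in both sets, as over all GFP-positive barcodes. EXPA7 was at 0.271 CPM in the GL2 set, 1.38 CPM in the RHD6 set and 1.62 CPM over all GFP-positive barcodes, against 56.8 CPM over all GFP-negative barcodes.

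The SMB and FEZ set stood apart by other genes, here compared with the 712 GFP-positive barcodes with no UMI of either. PLT1 was at 60.2 CPM with SMB and FEZ and 0.650 CPM without, PLT3 at 72.2 CPM with and 6.14 CPM without, and BRN1 at 124 CPM with and 5.03 CPM without. Enzymes lower over the whole GFP-positive group were higher here. MC9 had 44.7 CPM with and 3.47 CPM without, BFN1 9.07 CPM with and 0.0560 CPM without. CEL5 had 0.461 CPM with and 0.202 CPM without. AT1G65570, another gene of the root cap list, went the other way, at 0.768 CPM with and 1.064 CPM without. Among the genes of the GFP-positive side, AT2G43480 had 89.4 CPM with and 2.79 CPM without, TRM10 had 56.2 CPM with and 11.97 CPM without, and ANL2 had 29.0 CPM with and 10.8 CPM without. Others were nearly missing from this set. RTFL4 had 0.615 CPM with and 5.70 CPM without, AT3G24510 had 0.922 CPM with and 18.8 CPM without, and AT5G06270 had 1.23 CPM with and 25.7 CPM without. Some genes with the highest GFP ratios were thus higher with SMB and FEZ, and others were higher without.

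**Figure D4:**
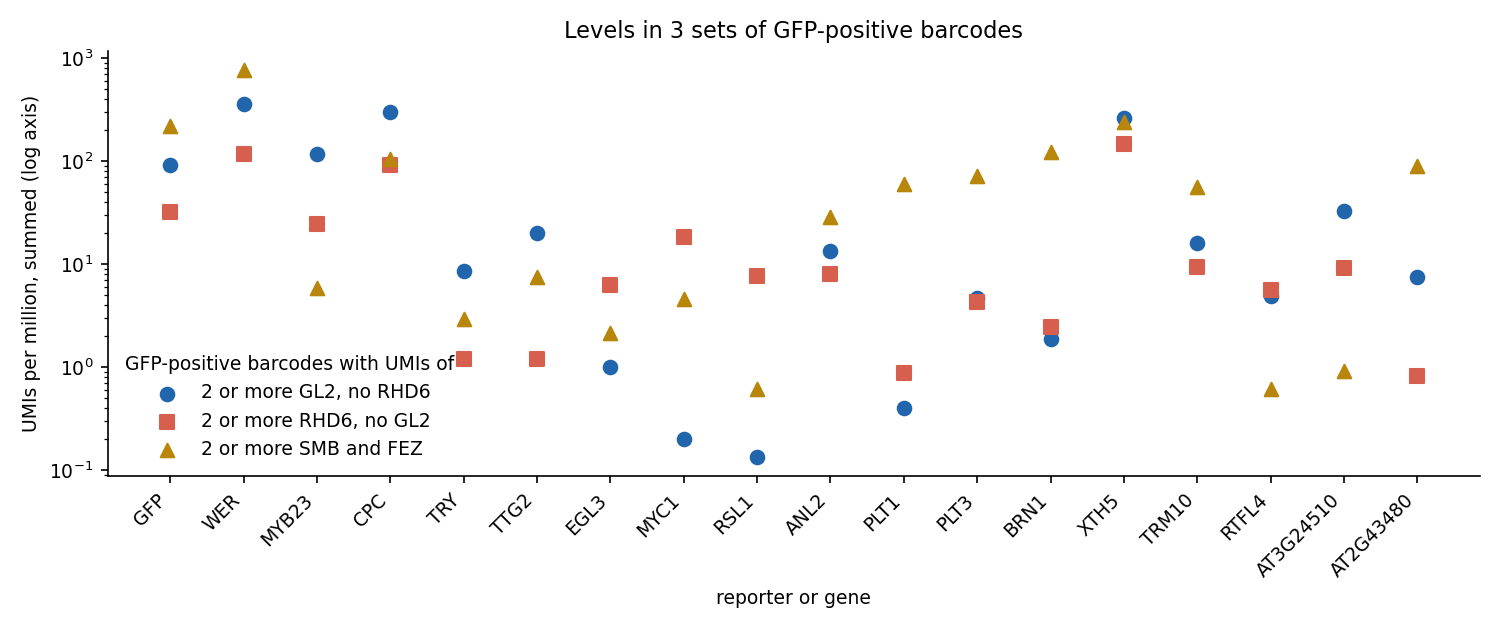
Summed CPM (log axis) of GFP and 17 genes in 3 sets of GFP-positive barcodes, 119 with 2 or more GL2 UMIs and no RHD6, 176 with 2 or more RHD6 UMIs and no GL2, and 142 with 2 or more UMIs of SMB and FEZ. WER is highest and MYB23 lowest in the SMB and FEZ set, MYC1 and RSL1 stand out in the RHD6 set, and RTFL4 and AT3G24510 are low in the SMB and FEZ set.

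Barcodes in a mitotic state were more frequent in the GFP-positive group. The groups were therefore also compared among barcodes with 2 or more UMIs on the mitosis list. Such barcodes, called dividing here, were 614 GFP-positive (66.5%) and 281 GFP-negative barcodes (25.99%), with median depths of 114255 and 63811 UMIs. The list was counted without thinning, so the cut also picked deep barcodes. GFP-positive barcodes with no UMI on it had a median depth of 30457 UMIs. The 2 sides are thus not matched for division or for depth. Of 16824 genes, 977 (5.81%) were higher and 2786 (16.6%) lower. WER had a log2 ratio of 4.15, with 254 CPM in GFP-positive and 14.3 CPM in GFP-negative barcodes, TRM10 had 4.14, RTFL4 had 3.95 and XTH5 had 3.46. WRKY30, a WRKY factor outside the highest 12 over all barcodes, was among the highest 12 here, with 111 CPM in GFP-positive and 12.5 CPM in GFP-negative barcodes.

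The growth lists were closer in that comparison. Ribosomal protein genes had 4 of 300 higher and 6 lower, with a median of 0.49 against 1.24 over all barcodes, and DNA replication genes had 1 of 18 higher. Mitosis genes, on which both sides were chosen, had 8 of 20 higher with a median of 0.74. Fate and tissue lists differed further: epidermal patterning had 6 of 12 higher with a median of 1.098, root hair had 9 of 12 lower with a median of -5.04, and all 12 endodermis genes were lower with a median of -3.74. COR47 and GASA1 had log2 ratios of -3.57 and -3.70.

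The GFP-negative barcodes outside the hair, endodermis, xylem, phloem and stele states were set apart as well, an analysis added after the data had been seen. Against these 601 barcodes, the 860 GFP-positive barcodes outside the same states had 1776 of 17141 genes at least 2-fold higher and 2830 at least 2-fold lower. WER had a log2 ratio of 3.67, XTH5 of 3.46 and TRM10 of 3.27. The single genes COR47, GASA1 and AGP12 had log2 ratios of -3.15, -4.29 and -3.07. The epidermal patterning list had a median of 0.36, below its 0.96 over all barcodes. CASP1 was near level at -0.23, as its barcodes had been taken out, and the ribosomal protein median was 0.89.

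The other 3 lines offered cells the reporter split had not used. They carry no WER reporter, so their deep barcodes were split by WER itself: 1548 of 3065 had WER in the pCORTEX:GFP line, 664 of 1497 in the PET111 line and 569 of 1616 in the pSCR:GFP line. In all 3 the WER-positive barcodes were deeper, with medians of 74278, 71968 and 73022 UMIs in the 3 lines, against 45325, 41606 and 37942 UMIs in the WER-negative ones. Each line is 1 library with a batch label of its own, so a difference between lines cannot be told apart from one between batches. No test was run, since with 3 libraries the smallest p of an exact sign-flip test is 0.25.

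The genes with the largest ratios or differences went the same way in these lines. Of the 43 genes named by ratio or by difference other than WER, all 21 with a ratio above 0 in the GFP split were above 0 in all 3 lines, and all 22 below 0 were below 0 in all 3. TRM10 had a mean log2 ratio of 4.51 ± 0.55 (SD, n = 3), XTH5 of 4.37 ± 0.91, RTFL4 of 4.05 ± 1.06 and AT3G14540 of 3.49 ± 0.29. GL2 had 2.74 ± 0.14 and MYB23 2.84 ± 0.64. CPC, level in the GFP split, had 0.04 in pSCR:GFP but 1.57 and 1.59 in the other 2 lines.

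Across all genes a larger share carried over on the lower side, and more of all tested genes were lower than higher in every line. Of the genes lower in GFP-positive barcodes, 3079 were measured in all 3 lines. Among these, 1650 (53.6%) were at least 2-fold lower with WER in every line. The share was 0.992% among tested genes that had been under 2-fold, and 10.7% over all tested genes. Of the genes higher in GFP-positive barcodes, 350 of 2666 (13.1%) were at least 2-fold higher in every line. The matching shares were 0.557% among genes under 2-fold and 2.50% over all tested genes. In pSCR:GFP the higher genes had a median log2 ratio of 1.46, against 0.35 in the pCORTEX:GFP line and 0.28 in the PET111 line. The same order was seen in the growth lists: the mitosis list had a median of 2.60 in pSCR:GFP, against 0.09 and -0.01 in the pCORTEX:GFP and PET111 lines, and the ribosomal list 1.41 against 0.43 and 0.31. Tissue lists were lower in every line, with root hair medians between -4.37 and -3.24 and endodermis medians between -5.89 and -3.00. Division and ribosomal genes thus stood above 2-fold with WER in the pSCR:GFP line and not in the other 2, as far as the list medians go.

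**Figure D5:**
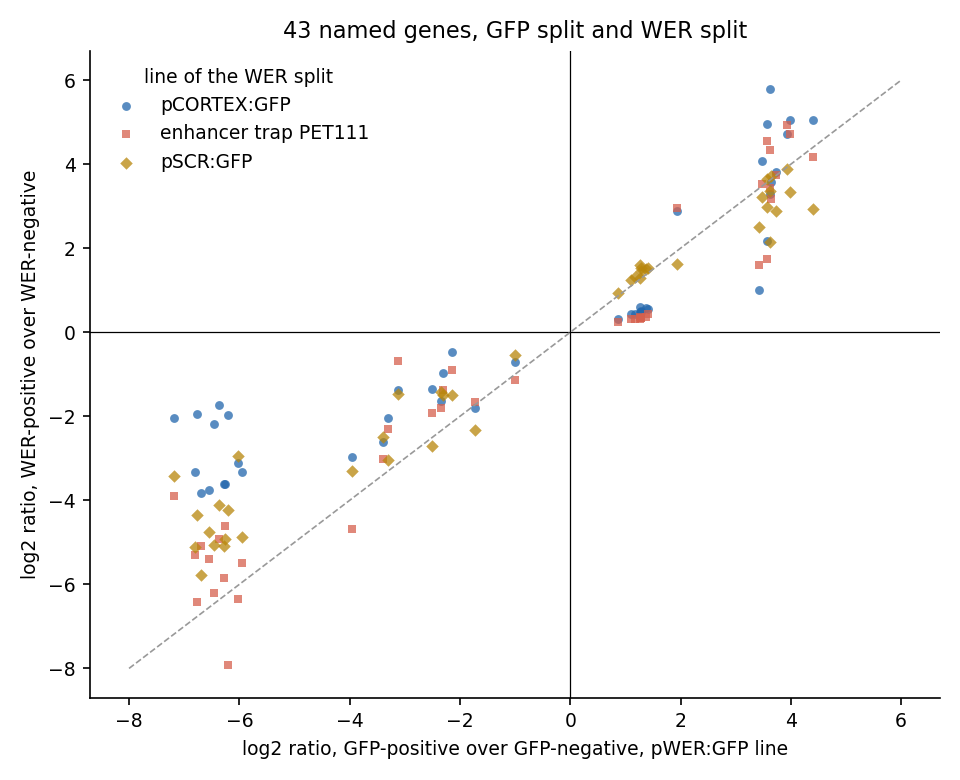
For 43 named genes, the log2 ratio of the GFP split in pWER:GFP (horizontal) against the log2 ratio of the WER split in each of the other 3 lines (vertical, 1 symbol for each line), with equality as a dashed line. All points lie in the lower left or upper right, and the ribosomal protein genes near 1.2 on the horizontal axis sit close to equality in pSCR:GFP and below it in the other 2 lines, whose list medians are 0.43 and 0.31.

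Some gene families not on the lists also had a side, taken by product name after the data had been seen. Aquaporins had 17 of 25 lower and none higher, with TIP2;2, a vacuolar membrane channel, at 1.66 CPM in GFP-positive and 47.2 CPM in GFP-negative barcodes. Peroxidases had 31 of 46 lower and 4 higher, extensins 21 of 31 lower and 3 higher, and lipid-transfer proteins 25 of 40 lower and 4 higher. Arabinogalactan proteins had 22 of 43 lower and 5 higher, with AGP3 at 10.5 CPM in GFP-positive and 527 CPM in GFP-negative barcodes and AGP31 at 1268 CPM in GFP-positive and 317 CPM in GFP-negative barcodes. Kinesins, microtubule motors, had 20 of 42 higher and 4 lower.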

How the data were processed

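Each library was a gene by barcode table of counts, whole numbers of UMIs per gene and barcode, which the authors deposited without normalization. Cell Ranger 7.1.0 and Seurat are named in the submitters' processing notes. The aligner settings and genome build are not given in the sources used here, so no coordinates are given. RefSeq TAIR10.1 gave symbols, products and gene order for 32548 of 32834 rows. Deep barcodes were split by GFP, UMIs were summed, and ratios of CPM were computed for genes with at least 100 UMIs; a group at 0 took a floor of 3 UMIs. Named genes were GFP, WER, the 12 highest and 12 lowest ratios among genes with at least 500 UMIs, the 10 largest gains and losses in CPM, and members of 16 lists of 174 genes. The members and lists were chosen with earlier results of these data known. Genes outside that rule, such as WRKY30 and those of the families, were chosen after their values were seen. States used barcodes thinned to 20000 UMIs. Single-gene results of some list members are not reported here. The ratio code was tested on simulated data. Python 3.11.15, numpy 2.4.6, scipy 1.17.1 and pandas 2.3.3 were used. Intervals cover counting error only. Whether counting used strand is not given in the sources used here.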

Additional observations from a re-analysis of the deposited data

Results flagged for a closer look

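GFP was also counted in barcodes the depth and organelle limits left out. Below 20000 UMIs, 697 of 6732 barcodes within the organelle limit held GFP, with a median depth of 7089 UMIs among those with GFP and a GFP level of 44.6 CPM over all 6732, against 43.4 CPM over all 2005 deep barcodes. Of 7 barcodes above the depth limit but over the organelle limit, 5 held GFP, with 9 GFP UMIs in all. The GFP-positive group is therefore the deep end of a larger set, since 80.8% of the library's 9118 GFP UMIs were in deep barcodes.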

How the results depend on the processing

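Each choice was changed alone in 21 settings, 2 of them added after the data had been seen (GFP and WER against neither, and the removal of differentiated states). WER was higher in all settings where it could be given, and its log2 ratio was 4.106 with a minimum of 10000 UMIs, 4.996 with at most 60000 UMIs, 4.417 without the 5% of barcodes with most UMIs, 4.489 and 4.893 with 2 or 5 GFP UMIs required, 4.534 after thinning, 3.708 when thinned barcodes were split again, 4.507 as a mean per barcode, 3.842 with 5 CPM added, 4.146 in dividing barcodes, 4.431 without them and 3.665 without differentiated states. Genes higher numbered 970 with 5 CPM added, 977 in dividing barcodes and 1776 of 17141 without differentiated states, where 2830 were lower. Genes lower numbered 1890 with 5 CPM added and 2146 without dividing barcodes. AHP6 (AT1G80100) turned to 1.015 with at most 60000 UMIs, 0.3259 thinned, 1.179 thinned and split again, 0.3524 as a mean per barcode, 0.2758 split by WER and 1.461 without dividing barcodes; the cause was not tested. The last 2 removals took out barcodes chosen on the genes themselves. Without dividing barcodes, RNS3 turned to 0.1101, AT1G72490 to 0.2055, LAX2 to 1.176, NUC to 0.4201, HSP17.6A to 0.5148 and MBF1C to 0.1645. Mitosis genes turned as well, with CYCB1;1 at -1.434, CYCB1;4 and KN at -0.2115, and CYCB2;2 and CYCB2;3 at -0.6265. CDKB2;1 was at -0.5525, CDKB2;2 at -0.1119, AUR1 at -0.8995 and AUR2 at -0.4745. Each barcode left held fewer than 2 UMIs on the mitosis list, so the signs of these mitosis genes rest on few UMIs. They decide nothing, and neither does the mitosis list median of 1.295 in that setting, which rests on the same barcodes. Without differentiated states, XCP1, the only xylem gene left with 100 UMIs and so also that list's median, turned to 0.2219, UBC29 to 0.325, AT5G06630 to 0.4563, AT5G04080 to 0.1386, AT1G28815 to 1.325, CASP2 to 0.1186 and PER64 to 0.1551. VND7, a xylem gene with under 100 UMIs in that setting, had a ratio of 1.062 that rests on few UMIs. In the WER split of the other lines, the median log2 ratio of the 11 highest genes ran between 3.40 and 3.80 with each library left out. No paired analysis was possible because both groups come from 1 library. Depth limits low genes: those under 100 UMIs were left out.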

Other observations

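Some of the 12 highest ratios had neighbours on the GFP-positive side; the pairs given here were picked for the size of the neighbour's ratio, and other neighbours, such as those of WER and AT4G34419, had smaller ratios of either sign. AT3G14540 lies in RefSeq order between AT3G14530, a terpenoid synthase gene, and GGPS3, geranylgeranyl pyrophosphate synthase 3. AT3G14530 had 37.5 CPM in GFP-positive and 4.38 CPM in GFP-negative barcodes (log2 3.097), and GGPS3 had 30.4 CPM in GFP-positive and 3.11 CPM in GFP-negative barcodes (log2 3.29). AT2G17080 is next to AT2G17070, of the same DUF241 family, which had 33.7 CPM in GFP-positive and 6.75 CPM in GFP-negative barcodes (log2 2.32). These neighbours were noticed after their values were seen, and copies of 1 family may share reads.

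Defensin-like genes, small secreted cysteine-rich peptides, had members on both sides: 3 of 12 were higher and 4 lower. AT4G22235 had 242 CPM in GFP-positive and 48.5 CPM in GFP-negative barcodes, whereas AT4G22212 had 105 CPM in GFP-positive and 379 CPM in GFP-negative barcodes. ROTUNDIFOLIA-like genes were also mixed, with 4 of 14 small polypeptide genes of this kind higher and 5 lower; RTFL2 had 26.9 CPM in GFP-positive and 7.84 CPM in GFP-negative barcodes, and RTFL9 had 2.09 CPM in GFP-positive and 6.44 CPM in GFP-negative barcodes.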
